A study of Homo sapiens with 10 samples.

Results

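Proteins made for secretion or for membranes leave the endoplasmic reticulum (ER) in vesicles with a COPII coat, are received at the ER-Golgi intermediate compartment and the Golgi by tethers and SNAREs, and are accompanied by cargo receptors that cycle between the compartments. Vesicles with a COPI coat, recruited by ARF GTPases, carry receptors and escaped ER proteins back. Expression of 47 genes of this route was compared in shPAR1 and shCtrl PANC-1 cells. The genes were chosen by name, as the rows whose gene symbol is on a list of 48 names, out of 27884 genes in the files. The remaining name, SEC12, is the older name of PREB, which is on the list under its current symbol. By role they comprised 14 COPII genes, 12 cargo receptor genes, 12 COPI and ARF genes and 9 genes of tethers and SNAREs.

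PANC-1 is an established line of human pancreatic ductal adenocarcinoma. Both groups were transduced with lentivirus and selected with puromycin, 5 libraries with MISSION hairpin clone TRCN0000003690 against F2R, the gene of PAR1 (shPAR1, libraries 1 to 5), and 5 with control clone shc004 (shCtrl, libraries 6 to 10). A single hairpin was used against F2R, so effects of losing PAR1 and effects of that hairpin on other transcripts cannot be told apart. The labels speak of 5 groups of cells per hairpin, without stating whether each was transduced and cultured on its own. The p-values therefore rest on the spread between libraries, which may be technical.

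Libraries held 15335264 to 25369056 counts, and mitochondrially encoded genes took 7.37% to 9.08% of them in shPAR1 and 5.71% to 7.07% in shCtrl cells. F2R values were 10.20, 10.24, 10.32, 10.18 and 10.21 in shPAR1 and 11.81, 11.75, 11.75, 11.80 and 11.82 in shCtrl libraries, and the log2 difference was -1.56 (limma, standard error 0.040, adjusted p = 7.69e-15). Of 6 epithelial and ductal markers, KRT8, KRT18 and KRT19 were abundant, at 7391 normalized counts or more. SOX9 lay at 3778 to 4426, EPCAM at 180 to 341 and KRT7 at only 10.3 to 23.5. The sum of the 6 markers was 39543 to 45751 normalized counts in shPAR1 against 57929 to 61124 in shCtrl libraries. The part of this difference in the results was not tested. The leukocyte genes PTPRC and CD68 stayed at or below 10.7 normalized counts. DCN and LUM, which mark fibroblasts, were not among the listed genes, although COL1A1 was present, at 3127 to 4009 normalized counts in shPAR1 cells and at 4516 to 5256 in shCtrl cells, without overlap. Values are log2(normalized count + 1), and a gene was called changed at an adjusted p under 0.05 from limma over the 17518 genes that reached 10 normalized counts in 5 or more libraries. All 47 transport genes passed that minimum.

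Of the 47 transport genes, 18 were higher in shPAR1 cells, against 19.0% of all genes tested, and 4 were lower, against 21.9% of all genes tested (40.9% in either direction). That is 38.3% and 8.51% of the transport genes, and 25 did not pass. With size factors set without mitochondrial genes the counts were also 18 and 4. Changes were small: the median absolute log2 fold change was 0.13, compared with 0.20 over all genes tested, and no transport gene reached 0.5, a size that 14.8% of all genes reached. The roles were unequal. Of 12 cargo receptor genes 8 rose and 0 fell, with a median log2 fold change of 0.19. Of 14 COPII genes 6 rose and 3 fell (median 0.07), and of 9 tether and SNARE genes 3 rose and 0 fell (median -0.01). Among COPI and ARF genes 1 of 12 was higher and 1 was lower (median 0.02). The median over all genes tested was -0.005. The medians of these last 2 roles took either sign when single libraries were left out, turning negative for COPI and ARF without library 2, 3 or 6 (lowest -0.015) and positive for tethers and SNAREs without library 1, 2 or 10 (highest 0.019). A correction for transcript length and level gave 0.078 and 0.069. Groups did not overlap, with shPAR1 above, for 13 transport genes (13.3% of all genes) and, with shPAR1 below, for 4 (15.9% of all genes, and 29.2% in either direction).

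**Figure D1:**
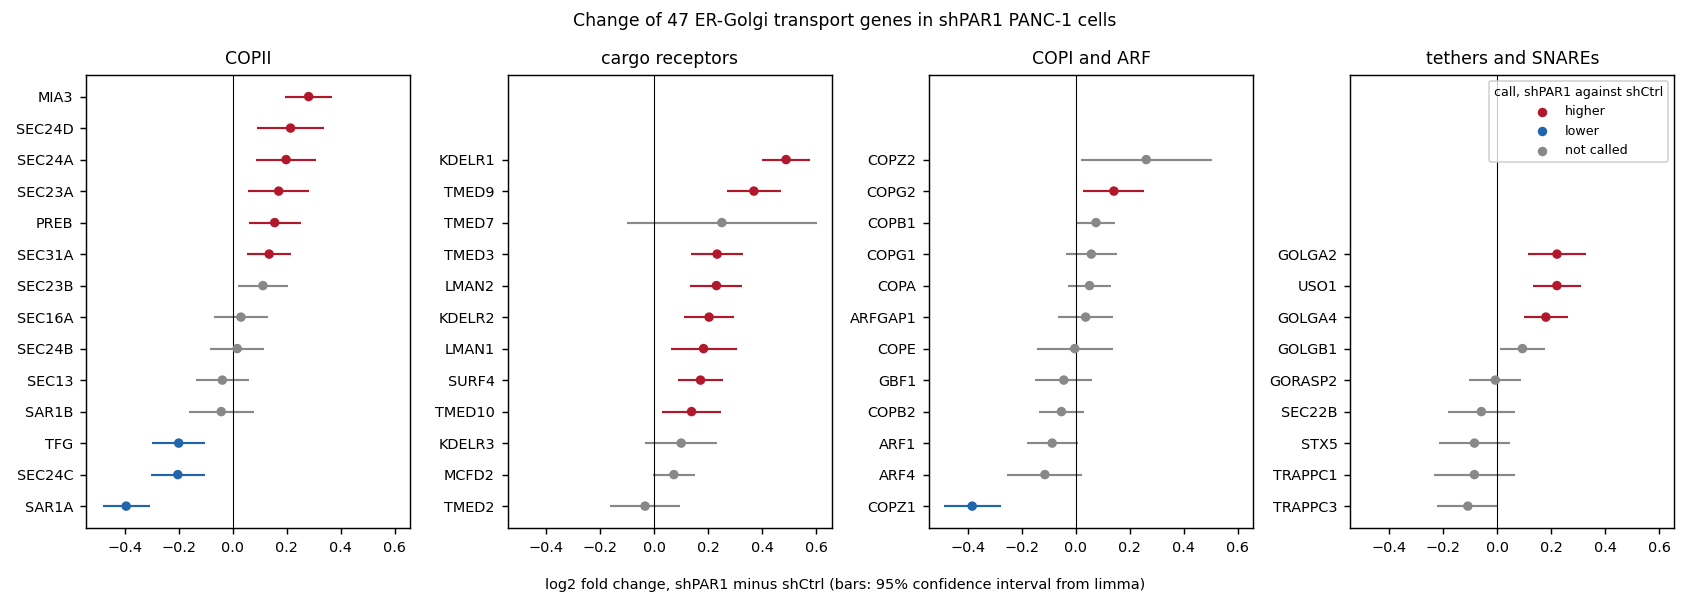
Log2 fold change (x axis, shPAR1 minus shCtrl) of each of the 47 transport genes, in 4 panels by role, with 95% confidence intervals from limma as bars and the call as colour. The cargo receptor panel holds 8 genes called higher and none called lower, SAR1A and COPZ1 lie lowest at -0.40 and -0.38, and most COPI genes lie close to 0.

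The COPII coat is assembled when PREB, the exchange factor of the ER membrane, loads SAR1 with GTP, and SAR1 then recruits the inner SEC23-SEC24 layer and the outer SEC13-SEC31 layer. MIA3, also known as TANGO1, helps load bulky cargo such as collagens at ER exit sites. Its log2 values were 11.61, 11.56, 11.54, 11.57 and 11.52 in shPAR1 libraries 1 to 5 and 11.36, 11.21, 11.25, 11.23 and 11.35 in shCtrl libraries 6 to 10. Each shPAR1 library thus lay above each shCtrl library, and MIA3 was the COPII gene that rose most (log2 fold change 0.28, standard error 0.041, adjusted p = 2.83e-05 from limma), which is 21.4% more normalized counts.

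SAR1A, which encodes a form of the GTPase that starts coat assembly, moved the opposite way. SAR1A values were 11.78, 11.71, 11.83, 11.80 and 11.91 in shPAR1 libraries 1 to 5 against 12.25, 12.19, 12.15, 12.18 and 12.24 in shCtrl libraries 6 to 10. The gap between the groups was wider than the range within either, and the log2 fold change was -0.40 (standard error 0.042, adjusted p = 5.16e-07 from limma), the largest fall among the 47 genes. Its relative SAR1B gave 11.09, 11.00, 11.00, 11.03 and 11.26 in shPAR1 and 11.27, 11.05, 11.01, 11.09 and 11.17 in shCtrl libraries. These ranges overlapped almost fully, at a log2 fold change of -0.04 with a 95% confidence interval from -0.16 to 0.08.

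The SEC24 genes encode the layer that reads sorting signals on cargo, and their 4 forms did not move together. SEC24C values were 11.00, 11.09, 11.13, 11.06 and 10.90 in shPAR1 libraries 1 to 5 and 11.15, 11.27, 11.26, 11.29 and 11.24 in shCtrl libraries 6 to 10. SEC24D values were 9.47, 9.66, 9.69, 9.58 and 9.44 in shPAR1 against 9.41, 9.37, 9.22, 9.39 and 9.38 in shCtrl libraries. So SEC24C was lower (log2 fold change -0.20, standard error 0.047, adjusted p = 0.00188 from limma) and SEC24D higher (0.21, standard error 0.059, adjusted p = 0.00745 from limma), each without overlap, although shPAR1 library 5 of SEC24D lay only just above the highest shCtrl library. In SEC24C 42.8% of the exon length is overlapped by an annotated gene on the opposite strand, and the sources do not state whether counting used the strand.

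SEC24A gave 10.78, 10.52, 10.62, 10.59 and 10.73 in shPAR1 libraries 1 to 5 and 10.55, 10.42, 10.38, 10.48 and 10.43 in shCtrl libraries 6 to 10. It rose by 0.20 (standard error 0.053, adjusted p = 0.00606 from limma), with shPAR1 library 2 lying below shCtrl library 6. SEC24B, its closest relative, gave 9.89, 9.81, 9.80, 9.70 and 9.86 against 9.79, 9.80, 9.75, 9.83 and 9.81, with a log2 fold change of 0.02 and a 95% confidence interval from -0.08 to 0.12.

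TFG, which organises COPII carriers at ER exit sites, was the third COPII gene that fell. Its values were 11.57, 11.52, 11.62, 11.62 and 11.74 in shPAR1 and 11.89, 11.83, 11.74, 11.75 and 11.86 in shCtrl libraries, and the highest shPAR1 library lay just below the lowest shCtrl library. The difference of -0.20 (limma, standard error 0.047, adjusted p = 0.00198) became -0.10 (adjusted p = 0.0600 from limma) after a correction for transcript length and level. Smaller rises were called for SEC23A (0.17), PREB (0.15) and SEC31A (0.13), the last without overlap. SEC23B (0.11), SEC16A (0.03), which scaffolds exit sites, and SEC13 (-0.04) did not pass. SEC23B lay near the threshold (adjusted p = 0.0533 from limma) and stayed uncalled in 13 of 17 alternatives.

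**Figure D2:**
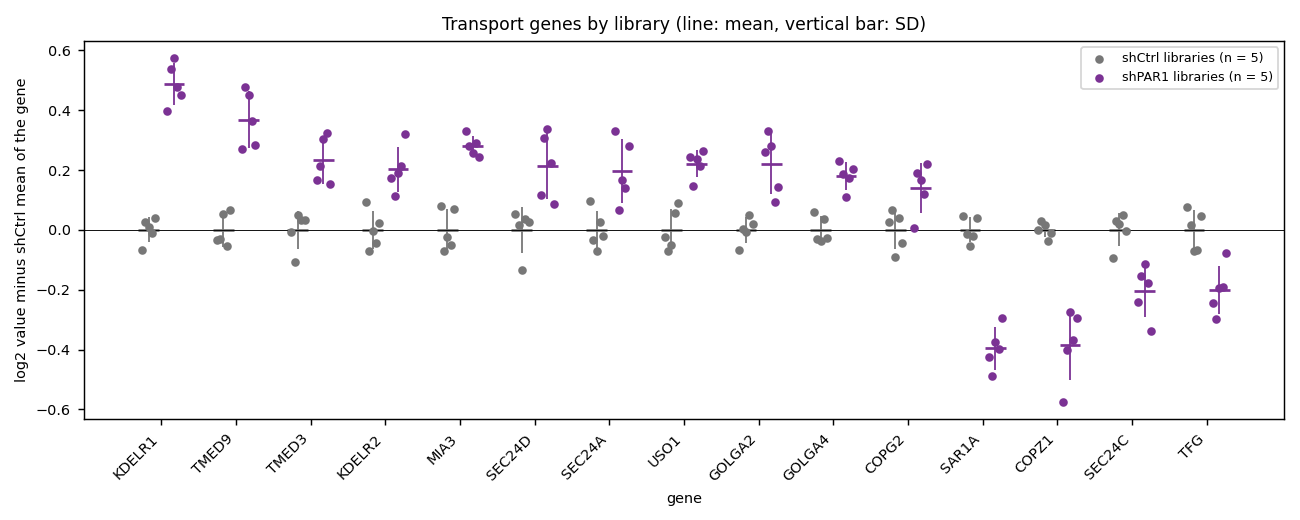
Log2 values (y axis, minus the shCtrl mean of the gene) of 15 transport genes in each of the 5 shPAR1 and 5 shCtrl libraries, with lines for group means and vertical bars for SD. For KDELR1 the 2 groups lie far apart, at 11.91 or more against 11.55 or less before centring, whereas for SEC24A and COPG2 single libraries of the groups overlap.

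Cargo receptors were the role with the most genes called higher. KDELR1, KDELR2 and KDELR3 encode the receptors that capture ER chaperones in the Golgi and return them to the ER. KDELR1 values were 11.91, 12.05, 12.09, 11.99 and 11.96 in shPAR1 libraries 1 to 5 and 11.45, 11.54, 11.52, 11.50 and 11.55 in shCtrl libraries 6 to 10. This was the largest change of all 47 genes (log2 fold change 0.49, standard error 0.042, adjusted p = 3.82e-08 from limma), 40.2% more normalized counts, with a wide gap between groups. KDELR2, the most abundant of the 3, gave 12.91, 12.85, 12.93, 12.95 and 13.06 in shPAR1 and 12.83, 12.67, 12.73, 12.69 and 12.76 in shCtrl libraries. Its lowest shPAR1 library lay only just above its highest shCtrl library, and the log2 fold change was 0.20 (standard error 0.044, adjusted p = 0.00124 from limma). KDELR3, at 8.63 ± 0.10 against 8.53 ± 0.064 (SD, n = 5 each), did not pass (log2 fold change 0.10, 95% confidence interval from -0.03 to 0.23).

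The TMED or p24 proteins are cargo receptors and structural parts of both kinds of vesicle. TMED9 values were 11.82, 12.02, 12.00, 11.91 and 11.83 in shPAR1 libraries 1 to 5 and 11.51, 11.52, 11.60, 11.49 and 11.61 in shCtrl libraries 6 to 10. All 5 shPAR1 libraries lay above all 5 shCtrl libraries, a difference of 0.37 (limma, standard error 0.047, adjusted p = 5.47e-06). TMED3 gave 11.22, 11.27, 11.36, 11.38 and 11.21 in shPAR1 and 11.05, 10.95, 11.10, 11.09 and 11.09 in shCtrl libraries, again without overlap, at 0.23 (standard error 0.046, adjusted p = 5.44e-04 from limma). TMED10 was higher by 0.14 (adjusted p = 0.0447 from limma) with overlapping groups, and this call was lost without library 1, 3, 4, 5, 7, 8 or 9 in turn (adjusted p from 0.0534 to 0.118 from limma). TMED2 did not pass (-0.03).

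TMED7 varied more between libraries of a group than any other member and gave no call. Its values were 11.80, 10.79, 11.10, 11.35 and 11.89 in shPAR1 and 11.55, 11.03, 10.87, 10.95 and 11.29 in shCtrl libraries. The lowest value of all, in library 2, and the highest, in library 5, both came from shPAR1 cells, and the log2 fold change of 0.25 (95% confidence interval from -0.10 to 0.60) was called only without library 2 (0.40, adjusted p = 0.0329 from limma). The readthrough gene TMED7-TICAM2 shares 19.98% of the exon length of TMED7 on the same strand.

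LMAN1 (ERGIC-53) and MCFD2 form the lectin receptor that carries coagulation factors V and VIII, LMAN2 (VIP36) is a related lectin, and SURF4 exports soluble cargo. LMAN2 was higher by 0.23 (standard error 0.046, adjusted p = 5.38e-04 from limma) and SURF4 by 0.17 (standard error 0.040, adjusted p = 0.00225 from limma), both without overlap. LMAN1 was higher by 0.18 with overlapping groups (adjusted p = 0.0174 from limma), and the call was lost without library 8 (adjusted p = 0.0509 from limma). MCFD2, its partner, had a log2 fold change of 0.07 and did not pass (adjusted p = 0.126 from limma, 95% confidence interval from -0.005 to 0.15).

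COPI is built from the coatomer, a complex of alpha, beta, beta prime, gamma, delta, epsilon and zeta subunits. Of 8 coatomer genes on the list, COPZ1, which encodes the usual zeta subunit, was lower and COPG2, a second gamma subunit, was higher, while COPA, COPB1, COPB2, COPE, COPG1 and COPZ2 did not pass. COPZ1 values were 11.28, 11.45, 11.58, 11.49 and 11.56 in shPAR1 libraries 1 to 5 and 11.86, 11.89, 11.87, 11.82 and 11.85 in shCtrl libraries 6 to 10. Library 1 was lowest, but the other shPAR1 libraries also lay below all shCtrl libraries (log2 fold change -0.38, standard error 0.050, adjusted p = 6.80e-06 from limma), and normalized counts fell by 23.3%. COPZ2 values were low, at 6.52, 6.84, 6.62, 6.63 and 6.92 in shPAR1 and 6.32, 6.54, 6.66, 6.18 and 6.54 in shCtrl libraries. These overlapped, and the log2 fold change of 0.26 (95% confidence interval from 0.02 to 0.50) did not pass after adjustment over all genes (adjusted p = 0.0793 from limma).

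COPG2 gave 9.36, 9.54, 9.51, 9.47 and 9.57 in shPAR1 and 9.37, 9.42, 9.26, 9.39 and 9.31 in shCtrl libraries, with library 1 inside the shCtrl range. The call (0.14, adjusted p = 0.0437 from limma) was lost without library 2, 3, 4, 5, 6, 8, 9 or 10 (limma, adjusted p between 0.0510 and 0.113). The larger coatomer subunits differed little: COPA had a log2 fold change of 0.05, COPB1 of 0.08, COPB2 of -0.05, COPG1 of 0.06 and COPE of -0.004. The counts of COPB2 carry an uncertainty, since 34.1% of its exon length is overlapped by a gene on the opposite strand. Smaller overlaps exist in other members, among them ARF4 (18.5%), MCFD2 (12.2%) and COPG2 (11.6%) on the opposite strand. KDELR2 shares 9.57% of its exon length with DAGLB on the same strand. COPB1 did not overlap between groups (12.32 or more against 12.29 or less) but missed the threshold (adjusted p = 0.0885 from limma). Among the regulators of the coat, ARF1 (-0.09) and ARF4 (-0.11), the GTPases, GBF1 (-0.04), their exchange factor, and ARFGAP1 (0.04), which triggers GTP hydrolysis, did not pass. The 95% confidence intervals of ARF1, GBF1 and ARFGAP1 lay within -0.18 and 0.14. That of ARF4 was wider, from -0.25 to 0.02, and ARF4 was called lower without library 5 (-0.17, adjusted p = 0.0225 from limma).

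Promoters of 40 of the 47 genes were found in RefSeq (GRCh38.p14), as the window from 250 bases before to 50 bases after the annotated start nearest to that of the GENCODE canonical transcript. SEC24D, TMED9, KDELR2, USO1 and GOLGA4, all called higher, and ARF4 and ARFGAP1, not called, had no window and were not searched. The windows found were searched on both strands for TGACGTGG, a site bound by ATF6, XBP1 and CREB3 family factors, which switch on genes of the secretory pathway. It occurred in 9 of 40 windows (22.5%), compared with 112 of 11500 windows of all genes tested (0.974%). The carriers were 5 COPI and ARF genes (COPA, COPB1, COPB2, ARF1 and GBF1) and SEC23A, SEC24A, KDELR3 and STX5, and 2 of these 9, SEC23A and SEC24A, were called higher while 7 did not pass. The stretches that hold the site are shown, with the site in capitals, 10 bases on each side in lower case, and each read in the direction of the site.
SEC23A, chr14:39103222-39103249, minus strand gene, read on the gene strand: cccctcctctTGACGTGGcagaggcggc
SEC24A, chr5:134648596-134648623, plus strand gene, read on the gene strand: tgagagtcggTGACGTGGcggcgaggcc
KDELR3, chr22:38468040-38468067, plus strand gene, read on the opposite strand: ggccgggcggTGACGTGGccagggcggc
COPA, chr1:160343228-160343255, minus strand gene, read on the gene strand: agagggtcgcTGACGTGGaggcgtccga
COPB1, chr11:14499842-14499869, minus strand gene, read on the opposite strand: agtccttggcTGACGTGGaagggggtgg
COPB2, chr3:139389633-139389660, minus strand gene, read on the opposite strand: tcagactgacTGACGTGGaacttccggg
COPB2, chr3:139389826-139389853, minus strand gene, read on the opposite strand: ctaagggccgTGACGTGGtgccgctgag
ARF1, chr1:228082682-228082709, plus strand gene, read on the gene strand: ccggaggcgcTGACGTGGccgccgtcag
GBF1, chr10:102245527-102245554, plus strand gene, read on the opposite strand: gtcagctcacTGACGTGGtaactagcct
STX5, chr11:62832050-62832077, minus strand gene, read on the gene strand: tacgtgtaggTGACGTGGccgcttccag

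The shorter CCACG, which is contained in the reverse complement of TGACGTGG and forms the distal part of the ER stress element, occurred in 34 of 40 windows (85.0%) and in 50.3% of all windows. It was present for 10 of 13 members called higher, 4 of 4 called lower and 20 of 23 not called. The whole ER stress element (CCAAT, any 9 bases, CCACG) occurred in 0 of 40 windows and in 16 of 11500. The E-box CACGTG occurred in 3 of 40 (7.50%, in SEC24A, MCFD2 and TMED10, against 10.0% of all windows), and the cyclic AMP response element TGACGTCA in 1 of 40, that of TRAPPC1 (against 3.43%). A match describes letters in these windows and not a bound site.

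Tethers catch arriving vesicles and SNAREs fuse them. The 3 genes of this role that rose all encode long coiled-coil proteins. GOLGA2 encodes GM130 of the cis-Golgi, and its values were 10.17, 10.24, 10.19, 10.00 and 10.05 in shPAR1 libraries 1 to 5 and 9.84, 9.91, 9.90, 9.96 and 9.93 in shCtrl libraries 6 to 10. USO1 encodes p115, the tether that binds GM130, and gave 11.44, 11.34, 11.43, 11.41 and 11.46 in shPAR1 and 11.17, 11.12, 11.14, 11.25 and 11.29 in shCtrl libraries. GOLGA4, a golgin gene of the trans-Golgi, gave 11.87, 11.82, 11.75, 11.81 and 11.84 against 11.70, 11.61, 11.60, 11.67 and 11.61. In none of these genes did the groups overlap. The log2 fold changes were 0.22 for GOLGA2 (standard error 0.051, adjusted p = 0.00197 from limma), 0.22 for USO1 (standard error 0.043, adjusted p = 4.13e-04 from limma) and 0.18 for GOLGA4 (standard error 0.039, adjusted p = 0.00108 from limma).

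GOLGB1, which encodes giantin, had a log2 fold change of 0.09 (adjusted p = 0.0638 from limma) and GORASP2, a Golgi stacking gene, of -0.01. The SNARE genes SEC22B (-0.06) and STX5 (-0.08) and the TRAPP complex genes TRAPPC1 (-0.08) and TRAPPC3 (-0.11) did not pass, and their 95% confidence intervals lay within -0.24 and 0.07. Without library 5, GOLGB1 was called higher and TRAPPC3 lower (adjusted p = 0.0325 and 0.0198 from limma), and both were also called with voom. SEC22B has 3 annotated pseudogene copies, so its level is uncertain.

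Related genes were compared through their log2 ratio in each library, for 10 pairs, by an exact two-sided permutation test adjusted over the 10 pairs. With 5 against 5 libraries the smallest p of this test is 0.00794. The ratio of SAR1A to SAR1B was 0.73 ± 0.070 in shPAR1 against 1.08 ± 0.067 in shCtrl libraries (SD, n = 5 each). All shPAR1 libraries (0.65 to 0.83) lay below all shCtrl libraries (0.98 to 1.14; exact p = 0.00794, adjusted p = 0.0198). From shCtrl to shPAR1 cells, SEC24C relative to SEC24D went from 1.89 ± 0.11 to 1.47 ± 0.042, COPZ1 relative to COPZ2 from 5.41 ± 0.17 to 4.76 ± 0.15, and KDELR1 relative to KDELR2 from -1.23 ± 0.096 to -0.94 ± 0.12, each without overlap and at the same p of the exact test. SEC24A relative to SEC24B went from 0.66 ± 0.057 to 0.84 ± 0.077 with overlap (exact p = 0.0159, adjusted p = 0.0317). This last call was lost without library 1, 3, 4, 5, 7, 8, 9 or 10 in turn (adjusted exact p = 0.0635 each), while the difference stayed between 0.17 and 0.21. With 1 library left out the exact test has fewer possible splits and so coarser p-values. The loss alone therefore does not tell whether the call rests on single libraries.

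For the other 5 pairs no difference passed. SEC23A to SEC23B differed by 0.06 (standard error 0.074), COPG1 to COPG2 by -0.08 (standard error 0.045), ARF1 to ARF4 by 0.03 (standard error 0.084), KDELR3 to KDELR2 by -0.10 (standard error 0.053) and TMED3 to TMED7 by -0.02 (standard error 0.26). Without library 2, which was lowest of the shPAR1 libraries for SEC23A and LMAN1 as well as TMED7, the SEC23A to SEC23B and the KDELR3 to KDELR2 differences passed, at 0.12 and -0.14 (adjusted exact p = 0.0454 and 0.0265).

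**Figure D3:**
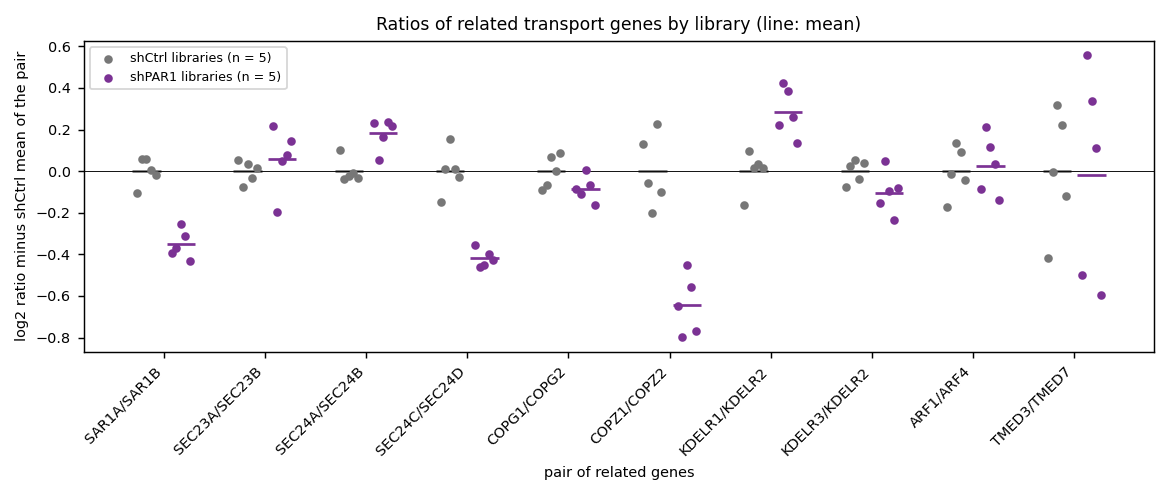
Log2 ratio of 10 pairs of related genes (y axis, minus the shCtrl mean of the pair) in each of the 5 shPAR1 and 5 shCtrl libraries, with lines for group means. The shPAR1 libraries lie apart from shCtrl for SAR1A/SAR1B, SEC24C/SEC24D, COPZ1/COPZ2 and KDELR1/KDELR2, and TMED3/TMED7 is widely spread in both groups.

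Levels of related genes were compared as normalized counts per kilobase of the canonical transcript, and they depend on that choice of length. The 4 SEC24 genes summed to 1090 ± 28.5 per kilobase in shPAR1 against 1100 ± 20.8 in shCtrl libraries (SD, n = 5 each), with overlapping ranges. Within that sum the share of SEC24C was 43.3% ± 1.81 in shPAR1 against 49.4% ± 1.59 in shCtrl, while SEC24A and SEC24D had 23.1% and 17.3% against 19.9% and 14.8%. The sum of both SAR1 genes was lower, at 938 ± 52.6 in shPAR1 against 1139 ± 47.1 in shCtrl, and so was that of both COPZ genes, at 1621 ± 128 against 2057 ± 43.8. COPZ2 made up 7.03% ± 0.657 of the COPZ sum in shPAR1 and 4.61% ± 0.531 in shCtrl cells. The 3 KDELR genes summed to 5704 ± 169 in shPAR1 and 4557 ± 95.5 in shCtrl cells, without overlap, and KDELR1 held 46.4% ± 1.98 against 41.4% ± 1.55 of the sum.

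On the same per-kilobase scale ARF1 was the most abundant of the 47 genes in shCtrl cells (3872 ± 91.2), followed by KDELR2 (2454 ± 110) and TMED2 (2411 ± 158), which did not differ beyond their spread between libraries. In shCtrl cells COPB2 (2056 ± 48.8), COPZ1 (1961 ± 33.8) and COPG1 (1945 ± 60.6), which each supply a coatomer subunit, lay close together, and COPZ1 and COPG1 did not differ beyond that spread. The spread does not cover the choice of length. COPB2 has 3275 bases in its canonical transcript and 18721 over all exons, COPZ1 1890 and 3898, and COPG1 3078 and 4425. In shPAR1 cells COPZ1 was at 1507 ± 121 while COPB2 (1983 ± 83.3) and COPG1 (2027 ± 125) were not called different from shCtrl. COPB1 (1488 ± 10.9), COPA (1006 ± 26.3) and COPE (784 ± 40.6) were lower in level in shCtrl cells, and COPZ2 was lowest of the COPI genes at 95.03 ± 12.5. KDELR1 stood close to SURF4 and LMAN2 in shCtrl cells (1885 ± 53.7, 1868 ± 45.2 and 1860 ± 24.3) and above them in shPAR1 cells (2645 ± 129, 2105 ± 101 and 2185 ± 147). SEC22B was the least abundant of all, at 84.1 ± 6.38 in shCtrl cells, with the uncertainty from its pseudogene copies given above.

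A further 75 genes of the ER-Golgi route were examined in the same fit, of which 74 were tested. Of these 17 were higher and 8 were lower, or 23.0% and 10.8%, against the 19.0% and 21.9% of all genes, with a median of 0.04. Without single libraries 12 to 19 were higher and 6 to 8 were lower. The count higher was 12 without library 10 (17.1% of all genes tested) and 14 with TMM factors (17.8%). The share called higher was thus not steadily above that of all genes. Of 18 further COPII and cargo genes 7 rose and 2 fell. Among those called, TMED1 rose most, by 0.30 with overlapping groups (adjusted p = 0.0411 from limma), followed by YIPF5 (0.28, without overlap), a Golgi membrane protein gene. TMED1 was low in level (mean 7.29 in shPAR1 against 6.99 in shCtrl), with shCtrl library 9 lowest at 6.60. SEC23IP, which encodes a SEC23 partner, fell by 0.38 (adjusted p = 4.62e-07 from limma) and ERGIC1, a gene of the intermediate compartment, fell by 0.11. Of 10 golgin genes 4 rose and 0 fell, led by GCC1 (0.29) and TRIP11 (0.25), which encodes GMAP-210.

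Genes of tethering complexes and of fusion were called at shares below those of all genes tested (19.0% higher and 21.9% lower). Of 11 COG and NRZ genes 1 rose (9.09%, COG6, 0.30) and 2 fell (18.2%, COG2, -0.28, and COG5, -0.25). TRAPP genes were higher for 2 of 12 (16.7%, TRAPPC9, 0.31, and TRAPPC12, 0.19) and lower for 2 (16.7%, TRAPPC4, -0.23, and TRAPPC2, -0.16). Among SNARE and fusion genes 2 of 11 were higher (18.2%, USE1, 0.22, and NAPA, 0.21) and 1 was lower (9.09%, YKT6, -0.19). In these lists the groups overlapped for COG6, TRAPPC12, NAPA and USE1 (adjusted p = 0.0467 from limma). They did not overlap for TRAPPC9 or for the genes called lower. Among further COPI genes ARF3, which encodes another ARF GTPase, fell (-0.24), and none of 6 Rab GTPase genes passed, with log2 fold changes from -0.14 to 0.12.

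Of 5 genes for transcription factors that raise secretory capacity, 3 were higher and 0 were lower. CREB3L1, whose protein is released from the ER and Golgi membrane by cleavage, gave 10.32, 10.61, 10.45, 10.45 and 10.41 in shPAR1 libraries 1 to 5 and 9.17, 9.25, 9.31, 9.21 and 9.15 in shCtrl libraries 6 to 10, a difference of 1.23 (limma, standard error 0.055, adjusted p = 5.71e-12). Its relative CREB3L2 gave 10.53, 10.51, 10.48, 10.44 and 10.45 against 9.74, 9.56, 9.62, 9.74 and 9.62, a difference of 0.82 (limma, standard error 0.047, adjusted p = 1.77e-10). XBP1, a factor of the unfolded protein response, gave 10.65, 10.68, 10.82, 10.81 and 10.76 against 10.17, 10.16, 10.19, 10.19 and 10.24, a difference of 0.55 (limma, standard error 0.045, adjusted p = 1.70e-08). In all 3 genes the groups were far apart compared with their spread. ATF6 (0.09, adjusted p = 0.0916 from limma) and CREB3 (0.02) did not pass. Whether these genes have a part in the levels of the transport genes, including those with TGACGTGG in the promoter windows shown above, was not tested.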

How the data were processed

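The 5 shPAR1 and 5 shCtrl libraries were prepared from total RNA after ribosomal RNA depletion. The authors checked single reads with FastQC 0.11.5, trimmed adapters and poor bases with Trimmomatic 0.36, mapped to GRCh38 by HISAT2 2.1.0, generated counts with HTSeq and analysed them with DESeq2. The deposited values are log2(count / size factor + 1) per gene. The annotation release and whether counting used the strand: not given in the sources used here. Undoing the scale gave counts within 0.000665 of whole numbers.

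Members, roles and lists were chosen with earlier results of these data known. The deposited log2 values were fitted with limma 3.58.1 in R 4.3.3 (trended prior variance, two-sided, Benjamini-Hochberg over 17518 genes). The fit was tested on simulated data with known changes of 0.5 and 1 in log2. No transport gene reached 0.5, so that test does not cover changes of the sizes called here. Symbols, coordinates and canonical transcript lengths came from GENCODE 44 (27361 of 27884 identifiers matched), promoter windows from RefSeq.

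Values in every library are given for F2R, for up to 3 members per role that rose and 3 that fell most among those called, and for pairs whose ratio differed. TMED7 was added after its values were seen. Values per library of CREB3L1, CREB3L2 and XBP1 were added after their changes were seen. Of the other lists the 2 most changed genes called in each direction are named, except 1 gene that is not reported here. Alternatives were TMM factors, factors without mitochondrial genes, a pseudocount of 5, no filter, a minimum of 1 CPM in all libraries of either group, voom with sample quality weights, a correction of each library for transcript length and level, and leaving out each library. The correction used canonical transcript lengths in place of the summed exon length that the design named. Tables and figures were made with Python 3.11.15, pandas 2.3.3, scipy 1.17.1 and matplotlib 3.10.9.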

Additional observations from a re-analysis of the deposited data

Results flagged for a closer look

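In 3 of 116 groups of 5 values examined (each of the 47 genes and F2R, and each of 10 ratios, in both conditions), 1 library lay far from the other 4 by Dixon's criterion, which chance exceeds in about 1 group in 20. SEC24D was 9.22 in shCtrl library 8 against 9.37 to 9.41 in the other shCtrl libraries. MCFD2 was 11.57 in shPAR1 library 2 against 11.64 to 11.66 in the others. The log2 ratio of SEC24A to SEC24B was 0.76 in shCtrl library 6 against 0.62 to 0.65 in the others.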

How the results depend on the processing

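Across the 17 alternatives, 15 of 18 genes called higher and 3 of 4 called lower kept their call in each, the exceptions being LMAN1, TMED10, COPG2 and TFG. The count of transport genes called higher was 16 with TMM factors (17.8% of all genes tested), 16 with no filter (12.2%), 21 with voom (21.0%) and 24 after the correction for transcript length and level (20.3%), and from 16 to 19 without single libraries. The count called lower was 4 with TMM factors (23.1% of all genes tested) or no filter (13.5%), 5 with voom (23.5%), 3 after that correction (20.9%) and from 4 to 6 without single libraries. After the correction the median log2 fold changes were 0.13 for COPII, 0.24 for cargo receptors, 0.078 for COPI and ARF and 0.069 for tethers and SNAREs, and SEC13 turned from -0.04 to 0.093 (adjusted p = 0.0459 from limma). Without shPAR1 replicate 1, 3, 4 or 5 or shCtrl replicate 7, 8, 9 or 10 in turn, the SEC24A to SEC24B difference missed the threshold (adjusted exact p = 0.0635), and it ranged from 0.17 to 0.21. The exact test is coarser with 1 library left out, so this loss alone does not show reliance on single libraries. The SEC23A to SEC23B difference ranged from 0.018 to 0.12 and that of KDELR3 to KDELR2 from -0.14 to -0.071. Of the 25 genes not called 15 stayed so under each alternative. No paired analysis was made, because the labels, which number the libraries serially, do not state whether shPAR1 and shCtrl libraries were matched. The lowest count of a member in a library was 71, in COPZ2, and how far depth limits the calls was not tested. The causes of these shifts were not tested.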
